A study of Homo sapiens with 46 samples.

Results

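The genes described here are 9 core factors of nonsense-mediated decay: UPF1, UPF2, UPF3A, UPF3B, SMG1, SMG5, SMG6, SMG8 and SMG9. They were chosen by name, as every transcript whose gene name in the deposited tables equals 1 of these 9 symbols. The rule uses names alone, though it was set with earlier results of these data known. All 9 genes were present in each of the 4 transcript tables, 1 per cell type, and in the 10707 genes that all 4 tables share. They were represented by 26 of 32819 transcripts in human pluripotent stem cells (hPSC), 32 of 54325 in ectoderm, 21 of 30409 in endoderm and 29 of 36407 in mesoderm. Nonsense-mediated decay is a translation-coupled pathway that removes mRNAs on which a ribosome terminates too far upstream of the 3′ end or of a remaining exon junction complex. UPF1, an RNA helicase, is recruited to the terminating ribosome, is bound by UPF2 and a UPF3 protein, and is phosphorylated by the SMG1 kinase, whose activity SMG8 and SMG9 restrain. Phosphorylated UPF1 then binds SMG5 and the endonuclease SMG6, and the mRNA is cleaved or degraded from its ends. UPF3A and UPF3B are paralogues, and several of these factors have mRNAs that are themselves targets of the pathway.

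The transcript tables did not hold the same model of every factor, and for UPF1 and UPF3B they differed at coding sequence that the reference annotation (GENCODE v29, GRCh38) describes. Shown first is exon 7 of UPF1 in the reference transcript UPF1-201, found in ectoderm and mesoderm, and in UPF1-207, the only UPF1 transcript of the hPSC table and the minor one in mesoderm. Both lie on the plus strand, at chr19:18852987-18853071 in UPF1-201 and chr19:18852987-18853104 in UPF1-207. Capitals mark the 33 bases, 11 codons in frame, that the second transcript adds through a later splice donor.
UPF1-201 exon 7: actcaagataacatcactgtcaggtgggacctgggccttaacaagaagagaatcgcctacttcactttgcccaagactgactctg
UPF1-207 exon 7: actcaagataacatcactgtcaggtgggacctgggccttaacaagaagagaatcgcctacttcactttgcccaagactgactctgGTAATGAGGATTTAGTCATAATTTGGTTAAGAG

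For UPF3B, the reference transcript UPF3B-202 was listed in ectoderm, endoderm and mesoderm, whereas UPF3B-201, which includes the 39-base exon 8 (13 codons, chrX:119840646-119840684, minus strand), was listed only in the ectoderm table. The junction without the exon and the same place with it are shown with 30 bases of flanking exon on each side, the exon in capitals.
UPF3B-202 junction: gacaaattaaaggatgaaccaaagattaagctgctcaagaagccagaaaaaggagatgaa
UPF3B-201 exon 8: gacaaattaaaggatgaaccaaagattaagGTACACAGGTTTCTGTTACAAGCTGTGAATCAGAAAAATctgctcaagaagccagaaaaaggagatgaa

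UPF3B-201 was rare. It held 2.8, 2.05 and 1.03 CPM (counts as a share of the library, put on a common scale) in the 3 ectoderm cytoplasm libraries, against 43, 36.1 and 42.1 CPM for UPF3B-202, and 0 counts in the 3 ectoderm chromatin libraries. In mesoderm UPF1-207 took 4.25% to 18% of the UPF1 counts of a library, apart from the single nucleoplasm library, which had none. In GRCh38, UPF1 lies at chr19:18831938-18868236 and SMG9 on the same chromosome at chr19:43727992-43754990. UPF2 lies at chr10:11920022-12043170, UPF3A at chr13:114281584-114305817 and UPF3B at chrX:119805311-119852998. SMG1 is at chr16:18804853-18926454, SMG5 at chr1:156249224-156282825, SMG6 at chr17:2059839-2303771 and SMG8 at chr17:59209400-59215247.

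The study profiled RNA of subcellular fractions by short-read RNA-seq in the H1 line of human pluripotent stem cells and in ectoderm, endoderm and mesoderm derived from it in culture. The hPSC were kept in mTeSR1 on Matrigel. Ectoderm was induced in knockout serum replacement with the inhibitors A83-01, PNU-74654 and Dorsomorphin. Endoderm received WNT3A and Activin A in low serum, and mesoderm Activin A on the first day and VEGF, BMP4 and bFGF. From each cell type, RNA was taken from cytoplasm, nucleus, nucleoplasm and chromatin, separated by mild detergent, a sucrose cushion and a urea lysis. The buffers of every group held α-amanitin, an inhibitor of RNA polymerase II. There were 46 libraries in 16 groups, 3 in each of 15 groups and 1 in mesoderm nucleoplasm, which entered no test. All cells descend from 1 line. The labels do not say whether the repeats of a group came from separate cultures, so the p-values measure only the spread between these libraries, which may be technical.

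Library totals lay between 4990408 and 21298678 counts. No pair of libraries of a group agreed within sampling noise: over 45 pairs, the chi-square per degree of freedom ran from 4.18 to 158. The columns used as nucleus carry a code that was matched to the nucleus labels by elimination, since the codes of the other 3 fractions fit their labels. Every nucleus value below rests on that match. The control genes did not follow the names cytoplasm and nucleus in every cell type. MALAT1, a nuclear non-coding RNA, stood at 208 to 252 CPM in hPSC cytoplasm against 74.1 to 95.7 in hPSC nucleus. In ectoderm it stood at 1112 to 2179 CPM in cytoplasm against 34.2 to 304 in nucleus. It overlapped in endoderm, and in mesoderm it was lower in cytoplasm, 156 to 187 against 227 to 445 CPM. EEF1A1 mRNA was higher in cytoplasm in hPSC (19455 to 22443 against 7863 to 9907 CPM) and endoderm (20315 to 21728 against 3741 to 5481). The same held in mesoderm (28779 to 29270 against 5404 to 7305), whereas in ectoderm it overlapped (25472 to 27566 against 23450 to 29878). Mitochondrial transcripts took 13.1% to 15.3% of hPSC nucleus counts and 0.399% to 0.615% of hPSC cytoplasm counts. The direction was the same in ectoderm (8.15% to 10.2% against 0.936% to 1.58%) and endoderm (8.09% to 16.1% against 0.423% to 0.46%). In mesoderm the direction was the opposite, 1.11% to 1.36% of nucleus counts against 5.84% to 7.46% of cytoplasm counts. In 3 libraries, hPSC chromatin replicate 3, mesoderm chromatin replicate 3 and the mesoderm nucleoplasm library, expression lay nearest to a library of another group. Of the fixed markers, all 6 of the endoderm list were present in endoderm cytoplasm. SOX1 and ZIC1 were below 1 CPM in ectoderm cytoplasm, and TBXT, MIXL1 and MESP1 below 1 CPM in mesoderm cytoplasm. Endoderm cytoplasm also kept 5 of the 6 hPSC markers at 1 CPM or more, with a sum of 4390 to 4910 CPM. That sum was 6006 to 6449 CPM in hPSC, 1994 to 2513 in ectoderm and 2489 to 2605 in mesoderm cytoplasm. Of the 6 mesoderm markers, 5 reached 1 CPM in endoderm (sum 190 to 245 CPM) and 3 in mesoderm (330 to 359 CPM). Summed markers of trophoblast stood at 129 to 162 CPM in endoderm and 147 to 157 CPM in mesoderm cytoplasm against 24.1 to 31.2 CPM in hPSC. In the trophoblast list GATA3 and CDX2 were below 1 CPM in hPSC, KRT7 in endoderm and CDX2 in mesoderm. Summed neural crest markers stood at 155 to 181 CPM in mesoderm against 28.7 to 32.2 CPM in hPSC. There SOX10 and TFAP2A were below 1 CPM in hPSC, and FOXD3 was below 1 CPM in mesoderm. Whether cells of other types were present, and their part in the results below, was not tested.

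Per transcript length, in the authors' TPM (transcript counts divided by length and scaled to a common total), UPF3A, SMG5 and UPF1 were the most abundant of the 9 mRNAs in hPSC cytoplasm and SMG1 the least. Their means there were 52.7 TPM for UPF3A, 39.2 for SMG5 and 32.6 for UPF1, then 17.5 for SMG9 and 10.2 for SMG6. Below these came UPF2 with 8.53 TPM, UPF3B with 8.37, SMG8 with 6.95 and SMG1 with 2.1. Neighbours from UPF3A to UPF1 and from SMG6 to SMG8 overlapped between libraries, so only the steps from UPF1 to SMG9, from SMG9 to SMG6 and from SMG8 to SMG1 separated the libraries. UPF1 led in ectoderm cytoplasm with 45.3 TPM and in endoderm cytoplasm with 109 TPM, and SMG5 led in mesoderm cytoplasm with 37.1 TPM. In ectoderm cytoplasm the libraries of UPF1 and SMG5 overlapped (40.1 to 50.1 and 35.4 to 43.1 TPM). SMG5 and UPF1 held the highest mean places in the chromatin of ectoderm (130 and 81.8 TPM), endoderm (167 and 252 TPM) and mesoderm (119 and 109 TPM). On chromatin the libraries of UPF1 overlapped those of SMG9 and UPF3A in ectoderm, and those of SMG5 and UPF3A in mesoderm. These levels depend on the length each table gives a gene: the endoderm table holds UPF1 as models whose counts and TPM imply 2770 and 870 bases, against 5490 bases for the main model in ectoderm and mesoderm.

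Within each gene the fractions can be set side by side in CPM of the library total, as in the plot of CPM by library. The 9 genes together held 546 to 683 CPM in hPSC cytoplasm and 819 to 952 CPM in hPSC chromatin. Chromatin had the highest mean sum in every cell type, with libraries at 1084 to 1137 CPM in ectoderm, 1143 to 1289 CPM in endoderm and 1014 to 1336 CPM in mesoderm. By library totals all genes also stood higher on chromatin than in nucleoplasm in the median. That median log2 change was 0.23 for hPSC, 0.19 for ectoderm and 0.46 for endoderm. Mean sums of the 9 were 614 CPM in hPSC nucleoplasm and 869 CPM on hPSC chromatin. Ectoderm had 844 and 1119 CPM, and endoderm 515 and 1205 CPM. Whether these sums rose more than those of other genes was not tested. In mesoderm the sum of the nucleus libraries, 1020 to 1039 CPM, lay within the chromatin range.

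**Figure D1:**
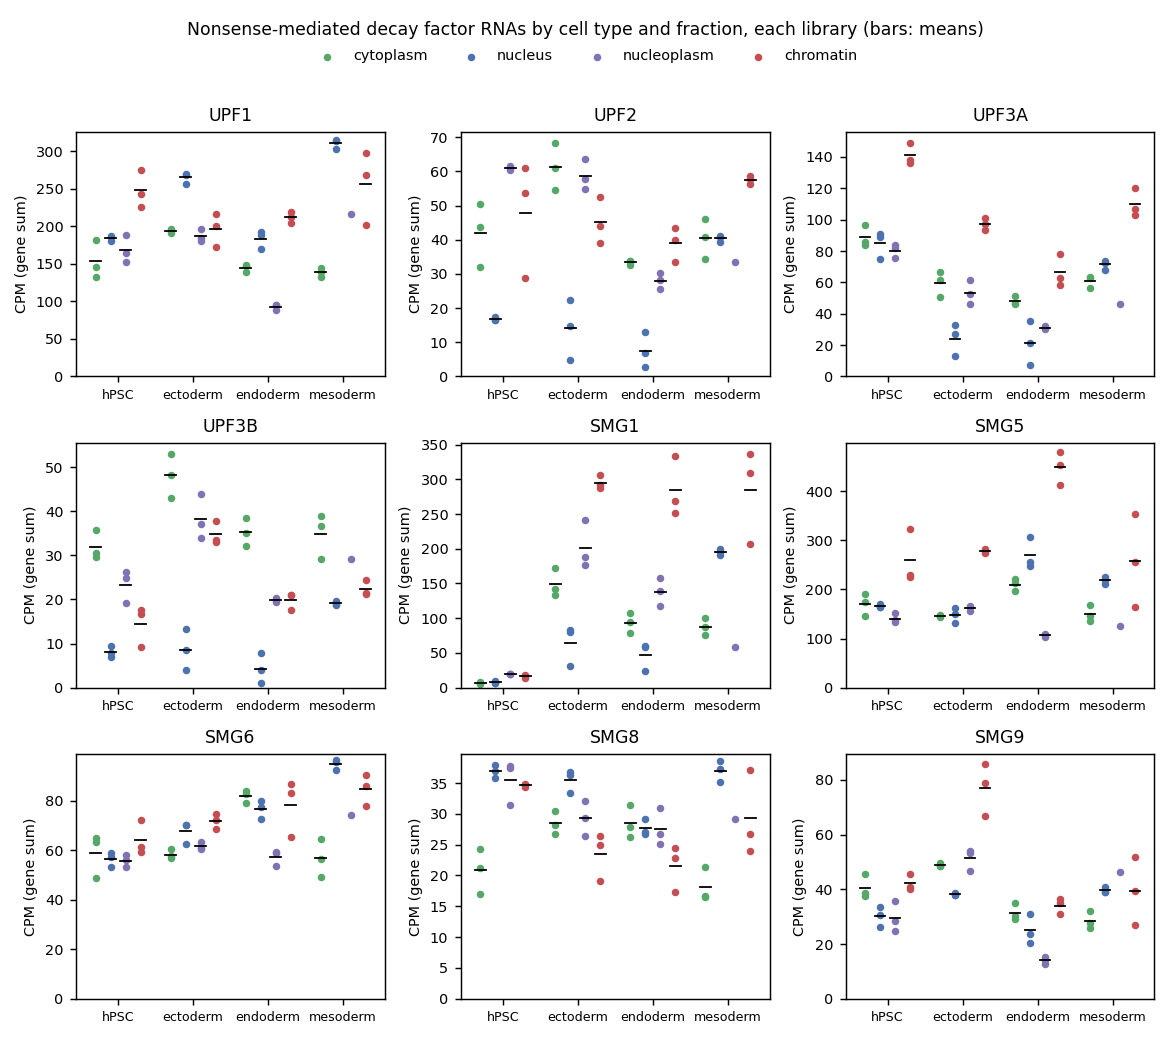
CPM of the library total for each of the 9 factors in every library, 1 panel per gene, with cell types along the horizontal axis, a colour for each fraction, points for libraries and bars for group means. SMG1 reaches at most 20.3 CPM in the hPSC libraries and at least 23.8 CPM in the libraries of the other cell types.

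The first comparison set the libraries labelled cytoplasm against those labelled nucleus within each cell type, with counts scaled by TMM (edgeR's trimmed mean of M-values) and a gene called at an adjusted p below 0.05. UPF3B and UPF2 were higher in cytoplasm than in nucleus, UPF3B in all 4 cell types and UPF2 in hPSC, ectoderm and endoderm. UPF1 and SMG8 were lower in cytoplasm in all 4, though with library totals the SMG8 change was 0.04 in endoderm. In hPSC 4 of the 9 were called, 2 higher and 2 lower, where 65.5% of all genes tested were called. In ectoderm 8 were called, 4 in each direction, against 54.2% of all genes. Endoderm had 7 calls, of which 2 were higher, against 69.9%, and mesoderm 5, of which 1 was higher, against 63.2%. The median log2 change of the 9 was -0.01, 0.01, -0.37 and -0.45 in these cell types, beside 0.10, 0.00, 0.01 and -0.00 over all genes. Scaling by library totals alone, without TMM, moved the median of all genes by 0.34 in ectoderm and 0.71 in endoderm. It took the share of called genes that were higher from 50.7% to 76.1% and from 49.1% to 71.5%.

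**Figure D2:**
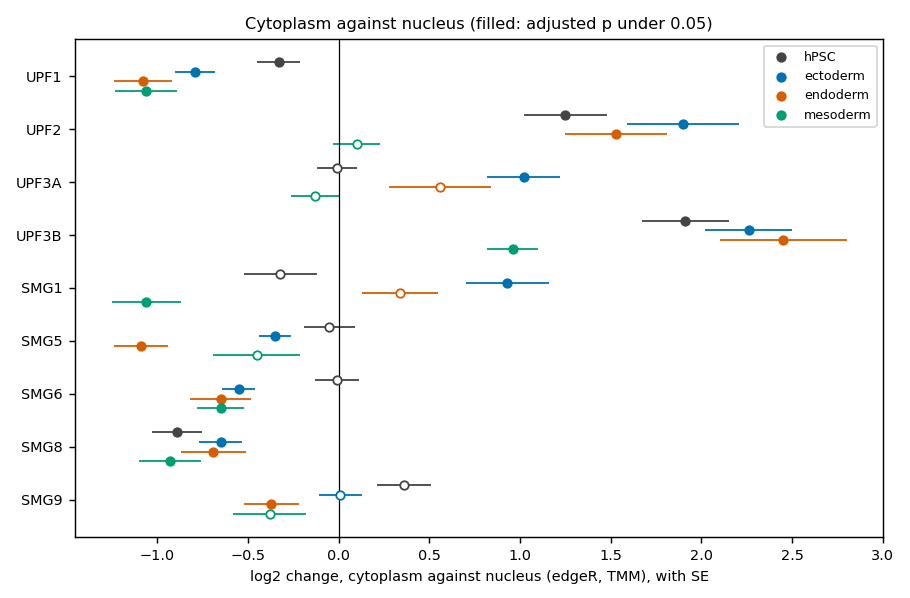
Log2 change of each factor in cytoplasm against nucleus with its standard error, for 4 cell types; filled symbols are called at an adjusted p below 0.05 by edgeR's quasi-likelihood test. UPF3B is above 0 and called in every cell type, from 0.96 in mesoderm to 2.45 in endoderm, and UPF1 is below 0 and called in every cell type.

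UPF1, the helicase, was read at 187, 186 and 180 CPM in the hPSC nucleus libraries and at 133, 146 and 182 CPM in the cytoplasm libraries. The groups overlapped there, and the log2 change was -0.33 ± 0.12 (SE; edgeR adjusted p = 0.0255). That call was lost without nucleus replicate 2 or 3 or cytoplasm replicate 1 or 2 (log2 change -0.26 to -0.34, adjusted p = 0.057 to 0.0841), and with library totals (-0.26, adjusted p = 0.109). Ectoderm read 270, 269 and 257 CPM in nucleus and 194, 197 and 191 CPM in cytoplasm, without overlap, a change of -0.79 ± 0.11 (edgeR adjusted p = 9.48e-05) that was -0.45 and not called in the TPM fit (adjusted p = 0.0508). For endoderm the values were 192, 170 and 188 CPM in nucleus and 147, 139 and 149 CPM in cytoplasm, again apart. The log2 change was -1.08 ± 0.16 (edgeR adjusted p = 2.94e-05), and -0.34 and still called with library totals. The widest gap in CPM was in mesoderm, where the nucleus libraries read 315, 303 and 314 CPM and the cytoplasm libraries 145, 132 and 139 CPM (-1.06 ± 0.17, edgeR adjusted p = 2.50e-04).

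UPF2, which bridges UPF1 and the UPF3 proteins, was read at 16.6, 17.4 and 16.5 CPM in hPSC nucleus and 32.1, 43.7 and 50.5 CPM in hPSC cytoplasm. The groups were apart, and it rose by 1.25 ± 0.23 (log2, SE; edgeR adjusted p = 3.21e-04). Its ectoderm nucleus libraries differed among themselves, with 22.4, 4.93 and 14.9 CPM. All lay below the cytoplasm libraries at 68.3, 54.5 and 61.1 CPM (1.90 ± 0.31, edgeR adjusted p = 2.28e-04). Replicate 2 was the low library; without it the change was 1.59 and still called. Endoderm nucleus read 2.69, 12.9 and 6.96 CPM, with replicate 1 lowest, against 32.6, 33.8 and 33.8 CPM in cytoplasm (1.53 ± 0.28, edgeR adjusted p = 2.09e-04; 1.22 without nucleus replicate 1, still called). In mesoderm the nucleus, at 39.3, 41 and 40.8 CPM, overlapped the cytoplasm at 46.2, 40.7 and 34.4 CPM. The change of 0.10 ± 0.13 was not called (edgeR adjusted p = 0.541).

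UPF3B, the X-linked UPF3 paralogue that binds the exon junction complex, had the largest rises. The hPSC libraries read 9.46, 7.91 and 6.91 CPM in nucleus and 35.7, 29.7 and 30.5 CPM in cytoplasm (log2 change 1.91 ± 0.24, edgeR adjusted p = 1.03e-05). In ectoderm nucleus it was 13.2, 3.99 and 8.47 CPM and in cytoplasm 52.9, 43.1 and 48.3 CPM (2.26 ± 0.24, edgeR adjusted p = 6.85e-06; 2.03 without nucleus replicate 2). No library of the 2 fractions overlapped in either cell type. Endoderm nucleus, with 0.94, 7.79 and 3.95 CPM, lay below endoderm cytoplasm, with 38.4, 35.1 and 32.1 CPM (2.45 ± 0.35, edgeR adjusted p = 1.67e-05), and the change was 2.06 without the lowest nucleus library, replicate 1. Mesoderm nucleus stood higher, at 19, 18.7 and 19.7 CPM, and below cytoplasm at 38.9, 36.6 and 29.1 CPM (0.96 ± 0.14, edgeR adjusted p = 1.63e-04). In the authors' TPM the mesoderm change was -0.14 and not called.

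UPF3A, the other paralogue, did not separate the fractions of hPSC: nucleus libraries read 89.1, 90.9 and 74.8 CPM and cytoplasm libraries 84, 85.5 and 96.8 CPM, a log2 change of -0.01. It was called only in ectoderm, with 32.6, 13 and 27 CPM in nucleus and 61.4, 50.8 and 66.8 CPM in cytoplasm (1.02 ± 0.20, edgeR adjusted p = 8.36e-04; 0.85 without nucleus replicate 2, still called). In endoderm the nucleus libraries spread over 7.59, 35.3 and 21.1 CPM, below cytoplasm at 46.5, 47.1 and 51.6 CPM. The change of 0.56 ± 0.28 missed the threshold (edgeR adjusted p = 0.0856). Without endoderm nucleus replicate 2 it was 1.05 and called (adjusted p = 0.00106), with library totals 1.19 (adjusted p = 0.0112). The mesoderm change was -0.13 ± 0.13 and not called.

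SMG1, the kinase that phosphorylates UPF1, was read at 83.1, 30.7 and 79.7 CPM in ectoderm nucleus and at 173, 142 and 133 CPM in ectoderm cytoplasm. The groups were apart, with a log2 change of 0.93 ± 0.23 (edgeR adjusted p = 0.00403; 0.71 without nucleus replicate 2, still called). Mesoderm went the other way: 200, 191 and 195 CPM in nucleus against 100, 87.6 and 75.1 CPM in cytoplasm, also without overlap (-1.06 ± 0.19, edgeR adjusted p = 5.68e-04). Endoderm, with 23.8, 58 and 59.3 CPM in nucleus and 94.9, 107 and 78.5 CPM in cytoplasm, gave 0.34 ± 0.21 and no call (edgeR adjusted p = 0.160), although the CPM did not overlap. With library totals the change was 0.99 and called. In hPSC all SMG1 values were low, 6.95, 9.17 and 7.29 CPM against 4.8, 6.22 and 8.56 CPM, and they overlapped. The change of -0.32 ± 0.20 was not called, but without cytoplasm replicate 3 it was -0.53 and called (adjusted p = 0.0433). Near-identical copies of SMG1, 5 to 7 genes in each table, together held 13.6 to 205 CPM per library, so reads may be split between SMG1 and its copies.

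The 2 subunits that restrain the kinase did not move together. SMG8 was read at 35.8, 37 and 37.9 CPM in hPSC nucleus and 17, 24.3 and 21.2 CPM in hPSC cytoplasm, apart. It fell by 0.89 ± 0.14 on the log2 scale (edgeR adjusted p = 6.73e-05). Mesoderm nucleus, at 37.2, 38.6 and 35.2 CPM, also lay above mesoderm cytoplasm, at 21.3, 16.7 and 16.5 CPM (-0.93 ± 0.17, edgeR adjusted p = 7.15e-04). In ectoderm (-0.65 ± 0.12, edgeR adjusted p = 6.43e-04) the libraries were apart, 33.3 to 36.8 CPM against 26.7 to 30.4 CPM, yet with library totals the call was lost (-0.32, adjusted p = 0.0735). In endoderm the CPM overlapped, 26.7 to 29.2 in nucleus and 26.2 to 31.4 in cytoplasm. The call (-0.69 ± 0.18, edgeR adjusted p = 0.00355) rested on the TMM scaling, the change being 0.04 with library totals. SMG9 was called only in endoderm (-0.37 ± 0.15, edgeR adjusted p = 0.0433), from 20.2, 31.1 and 23.8 CPM in nucleus and 29.2, 30.3 and 35 CPM in cytoplasm, which overlap. The sign was the opposite with library totals (0.33), and the call was lost without nucleus replicate 2 (-0.27, adjusted p = 0.172) or cytoplasm replicate 1 or 2 (-0.31 and -0.35, adjusted p = 0.147 and 0.115). In hPSC its change was 0.36 ± 0.15 (edgeR adjusted p = 0.0522), and 0.44 and called without cytoplasm replicate 3 (adjusted p = 0.0378).

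The 2 effectors that bind phosphorylated UPF1 were not higher in cytoplasm in any cell type. SMG5 was read at 248, 256 and 307 CPM in endoderm nucleus and 213, 196 and 221 CPM in endoderm cytoplasm, without overlap. The log2 change was -1.09 ± 0.15 (edgeR adjusted p = 9.00e-06), and -0.36 and still called with library totals. Its ectoderm libraries overlapped, 163, 132 and 151 CPM in nucleus and 146, 149 and 144 CPM in cytoplasm. The call there (-0.35 ± 0.09, edgeR adjusted p = 0.00652) was lost with library totals (-0.02) and without cytoplasm replicate 1 or 3 (-0.27 in both, adjusted p = 0.0573 and 0.0685). In hPSC the change was -0.05 and in mesoderm -0.45 ± 0.24, neither called. SMG6, the endonuclease, was read at 95.6, 96.4 and 92.4 CPM in mesoderm nucleus and 64.5, 56.5 and 49.2 CPM in mesoderm cytoplasm. The groups were apart (-0.65 ± 0.13, edgeR adjusted p = 0.00143). The ectoderm change was -0.55 ± 0.09 (edgeR adjusted p = 2.31e-04) and was not called with library totals (-0.21, adjusted p = 0.0846). For endoderm it was -0.65 ± 0.17 (edgeR adjusted p = 0.00336) with overlapping CPM, 72.5 to 80 in nucleus and 78.9 to 83.9 in cytoplasm, and 0.09 with library totals. The hPSC change was -0.01.

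The nucleus libraries were the lowest of the 4 fractions for several factors. Every nucleus library lay below every library of the other 3 fractions for UPF2 in hPSC (1 of 9, where 10.0% of all genes did so). The same held for UPF2, UPF3A, UPF3B, SMG1 and SMG9 in ectoderm (5 of 9, against 28.8%) and for UPF2, UPF3B and SMG1 in endoderm (3 of 9, against 18.1%). UPF2 means in cytoplasm, nucleoplasm and chromatin were 42.1, 60.9 and 47.9 CPM in hPSC. They were 61.3, 58.8 and 45.1 CPM in ectoderm and 33.4, 28 and 38.9 CPM in endoderm. SMG1 means, in the same order, were 149, 202 and 295 CPM in ectoderm and 93.5, 138 and 285 CPM in endoderm. For UPF3B they were 48.1, 38.3 and 34.8 CPM in ectoderm and 35.2, 19.9 and 19.8 CPM in endoderm. Ectoderm nucleus replicate 2 and endoderm nucleus replicate 1, the lowest libraries for UPF2, UPF3A, UPF3B and SMG1, also had the lowest MALAT1 of their groups. It stood at 34.2 CPM there beside 304 and 166 CPM in ectoderm, and at 29 CPM beside 275 and 87.1 CPM in endoderm. The part of this in the results was not tested.

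The second comparison set chromatin against nucleoplasm within hPSC, ectoderm and endoderm. SMG5 was higher on chromatin in all 3, UPF3A in hPSC and ectoderm, and UPF1 and SMG9 in endoderm, whereas UPF3B was lower in hPSC and SMG8 in ectoderm and endoderm. In hPSC 3 of 9 were called (2 higher), where 30.6% of all genes were. Ectoderm had 3 calls (2 higher), against 44.4%, and endoderm 4 (3 higher), against 53.7%. Medians of the 9 were -0.03, -0.06 and 0.47, beside -0.00, -0.09 and -0.12 over all genes. Library totals moved the median of all genes by 0.23, 0.28 and 0.58 towards chromatin. They moved the share of called genes that were higher from 56.3% to 86.5%, 41.8% to 70.6% and 42.8% to 73.7%.

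**Figure D3:**
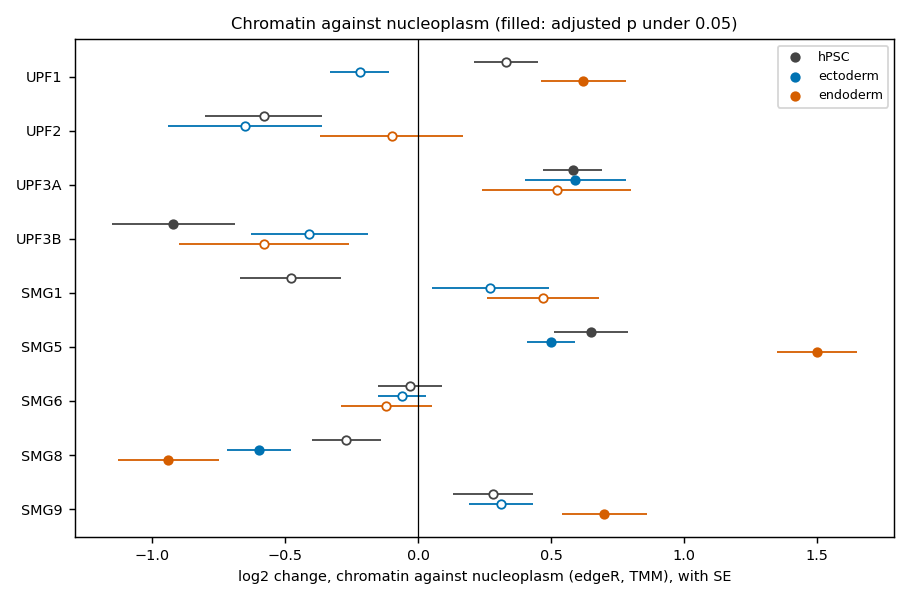
Log2 change of each factor in chromatin against nucleoplasm with its standard error, for hPSC, ectoderm and endoderm; filled symbols are called at an adjusted p below 0.05 by edgeR's quasi-likelihood test. SMG5 is above 0 and called in all 3, from 0.50 in ectoderm to 1.50 in endoderm.

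SMG5 read 137, 133 and 152 CPM in hPSC nucleoplasm and 226, 229 and 323 CPM on hPSC chromatin, without overlap, a log2 change of 0.65 ± 0.14 (edgeR adjusted p = 0.00451). Replicate 3 was the high chromatin library, 1 of those that stand apart; without it the change was 0.46 and still called (adjusted p = 0.00574). Ectoderm had 166, 156 and 164 CPM in nucleoplasm against 282, 275 and 278 CPM on chromatin (0.50 ± 0.09, edgeR adjusted p = 8.41e-04). The gap was widest in endoderm, with 110, 107 and 103 CPM against 413, 480 and 453 CPM (1.50 ± 0.15, edgeR adjusted p = 8.53e-07). These 3 gene-level calls held under every alternative tried, each left-out library included. SMG6, the other effector, had changes of -0.03, -0.06 and -0.12, none called. Its chromatin libraries still lay above nucleoplasm without overlap in all 3, with means of 64.2 against 55.7, 71.7 against 61.7 and 78.3 against 57.1 CPM. In the TPM fit its changes were 0.51, 0.65 and 0.50, all called (adjusted p = 0.0292, 0.00941 and 0.0244). The median of all genes in that fit was 0.47, 0.49 and 0.40. With library totals the endoderm change of SMG6 was 0.46 and called (adjusted p = 0.00894).

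UPF3A read 81.8, 83.7 and 75.4 CPM in hPSC nucleoplasm and 138, 136 and 149 CPM on chromatin, apart (0.58 ± 0.11, edgeR adjusted p = 0.00209; 0.54 without chromatin replicate 3). In ectoderm, 46.4, 61.5 and 52.3 CPM stood against 93.7, 101 and 97.5 CPM (0.59 ± 0.19, edgeR adjusted p = 0.0237), and the call was lost without nucleoplasm replicate 1 (0.50, adjusted p = 0.0976) or replicate 3 (0.58, adjusted p = 0.0672). Endoderm, from 30.3, 32.3 and 30.9 CPM to 63, 58.6 and 78.4 CPM without overlap, gave 0.52 and no call under TMM (edgeR adjusted p = 0.129). The change was 1.10 and called with library totals (adjusted p = 0.0229). UPF3B had the opposite sign in each, though only its hPSC change was called. In hPSC, 26.2, 24.8 and 19.1 CPM in nucleoplasm lay above 17.7, 16.6 and 9.12 CPM on chromatin (-0.92 ± 0.23, edgeR adjusted p = 0.00875; -0.68 without chromatin replicate 3, still called). In the authors' TPM the change was -0.35 and not called. The ectoderm and endoderm changes of UPF3B, -0.41 and -0.58, were not called, and the libraries overlapped. Its means on chromatin and in nucleoplasm were 34.8 and 38.3 CPM in ectoderm and 19.8 and 19.9 CPM in endoderm. The UPF2 changes, -0.58 in hPSC, -0.65 in ectoderm and -0.10 in endoderm, were not called either.

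UPF1 was called on chromatin only in endoderm, where nucleoplasm read 94.8, 94.7 and 88.4 CPM and chromatin 213, 219 and 204 CPM (0.62 ± 0.16, edgeR adjusted p = 0.00474). In hPSC it narrowly missed the threshold (0.33 ± 0.12, edgeR adjusted p = 0.0539), with libraries apart, 153 to 188 CPM against 226 to 275 CPM. The ectoderm change of UPF1 was -0.22 and not called, but 0.57 and called in the TPM fit. SMG9 was likewise higher in endoderm, with 14.2, 15.4 and 12.6 CPM against 30.8, 36.3 and 35 CPM (0.70 ± 0.16, edgeR adjusted p = 0.00162). Its partner SMG8 fell in endoderm by 0.94 ± 0.19 (log2; edgeR adjusted p = 6.23e-04), from 26.7, 31 and 25.1 CPM to 24.4, 22.8 and 17.3 CPM, and in ectoderm by 0.60 ± 0.12 (edgeR adjusted p = 0.00178). Both SMG8 calls were lost with library totals (-0.36 and -0.32, adjusted p = 0.0787 and 0.0908). SMG1 changed by -0.48, 0.27 and 0.47 in hPSC, ectoderm and endoderm, none called, although its CPM did not overlap in any of these. Its means on chromatin and in nucleoplasm were 16.6 and 19.7 CPM in hPSC, 295 and 202 CPM in ectoderm and 285 and 138 CPM in endoderm.

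The third comparison set each derived cell type against hPSC within a fraction. SMG1 was higher in every derived cell type and fraction tested, and UPF3A was lower in ectoderm and endoderm in all 4 fractions and in mesoderm cytoplasm. The called changes of the other 7 factors lay between -0.64 and 1.34 (log2), in directions that differed between cell types and fractions. Each cell type was quantified on its own transcript table, so cell type and assembly cannot be told apart here. In bulk samples fewer cells expressing a gene and less RNA per cell cannot be told apart either. In ectoderm cytoplasm 7 of 9 were called (5 higher), where 76.0% of all genes were. Endoderm cytoplasm had 5 calls (1 higher), against 59.6%, and mesoderm cytoplasm 3 (1 higher), against 68.0%. The nucleus gave 4, 4 and 5 calls, of which 3, 3 and 5 were higher, against 57.6%, 57.0% and 54.0% of all genes. On chromatin 5, 5 and 3 were called, of which 3, 4 and 3 were higher, against 62.4%, 61.9% and 54.3%. In nucleoplasm 5 were called in ectoderm (3 higher) and 6 in endoderm (2 higher), against 79.5% and 77.1%.

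**Figure D4:**
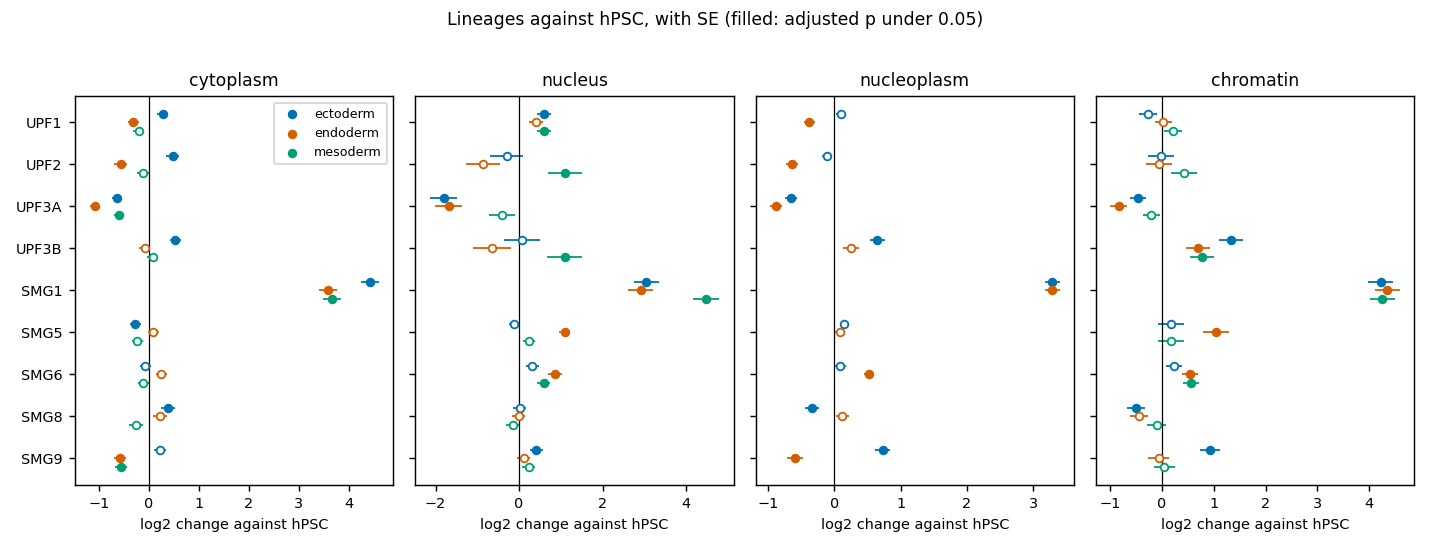
Log2 change of each factor in ectoderm, endoderm and mesoderm against hPSC with its standard error, 1 panel per fraction; filled symbols are called at an adjusted p below 0.05 by edgeR's quasi-likelihood test, and mesoderm nucleoplasm, with 1 library, is not drawn. SMG1 lies between 2.92 and 4.48 in every panel, far from the other 8 factors.

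SMG1 stood at 4.8, 6.22 and 8.56 CPM in hPSC cytoplasm, against 173, 142 and 133 CPM in ectoderm, 94.9, 107 and 78.5 CPM in endoderm and 100, 87.6 and 75.1 CPM in mesoderm. No derived library overlapped an hPSC library. The log2 change was 4.43 ± 0.18 in ectoderm (edgeR adjusted p = 3.32e-11), with 3.59 in endoderm and 3.66 in mesoderm. The range over the other fractions was 2.92 (endoderm nucleus) to 4.48 (mesoderm nucleus). The models behind these counts were unlike. In hPSC the main SMG1 model implied 4000 bases and in endoderm there were models of 7770 and 6780 bases, whereas ectoderm and mesoderm held the listed transcript SMG1-202, of 16115 reference bases. On the authors' TPM, which divide by model length, the cytoplasm changes were 1.95, 2.29 and 1.21 for ectoderm, endoderm and mesoderm, and the ectoderm nucleus change, 0.32, was not called. How much of the change lies in the models was not tested beyond this.

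UPF3A cytoplasm libraries read 84, 85.5 and 96.8 CPM in hPSC, above all derived libraries. The latter read 61.4, 50.8 and 66.8 CPM in ectoderm, 46.5, 47.1 and 51.6 CPM in endoderm and 63.2, 62.9 and 56.7 CPM in mesoderm. The log2 changes were -0.63 ± 0.10 (edgeR adjusted p = 2.86e-05), -1.09 ± 0.10 (2.95e-07) and -0.59 ± 0.10 (8.46e-05). In nucleus the ectoderm change was -1.81 ± 0.33 (edgeR adjusted p = 3.54e-04) and the endoderm change -1.69 (adjusted p = 7.18e-04), in nucleoplasm they were -0.65 and -0.88, and on chromatin -0.46 and -0.83, all called. The chromatin call in ectoderm was lost without ectoderm chromatin replicate 1 (-0.41, adjusted p = 0.0818) or 3 (-0.44, adjusted p = 0.066). UPF3B went the other way on chromatin, from 17.7, 16.6 and 9.12 CPM in hPSC to 33.1, 37.8 and 33.5 CPM in ectoderm, without overlap (1.34 ± 0.23, edgeR adjusted p = 1.87e-04). Its chromatin changes in endoderm, 0.70, and mesoderm, 0.78, were also called, and without hPSC chromatin replicate 3 the 3 changes were 1.09, 0.45 and 0.53, still called. The endoderm libraries, at 20.9, 17.5 and 20.9 CPM, overlapped those of hPSC, and that call was lost with library totals (0.45, adjusted p = 0.0953).

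SMG9 was called higher than in hPSC in 3 ectoderm fractions and lower in cytoplasm and nucleoplasm of endoderm and in mesoderm cytoplasm. Its nucleoplasm libraries read 28.4, 24.8 and 35.9 CPM in hPSC, 46.8, 53.1 and 54.1 CPM in ectoderm and 14.2, 15.4 and 12.6 CPM in endoderm. These 3 ranges do not overlap, and the log2 changes were 0.73 ± 0.11 (edgeR adjusted p = 3.43e-06) and -0.60 ± 0.12 (edgeR adjusted p = 1.49e-04). On chromatin the ectoderm change was 0.93 ± 0.20 (edgeR adjusted p = 0.00120). In cytoplasm endoderm and mesoderm fell by 0.58 and 0.55 (log2; edgeR adjusted p = 8.62e-04 and 9.47e-04), and neither was called in the TPM fit (-0.37 and -0.18). The listed SMG9-201 held at least 97.1% of SMG9 counts in every library of the 4 tables, though its counts imply 2200 to 2710 bases against 5510 in the reference.

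SMG5 was higher in endoderm nucleus, at 248, 256 and 307 CPM against 165, 165 and 170 CPM in hPSC (1.09 ± 0.14, edgeR adjusted p = 2.50e-05). It was also higher on endoderm chromatin, at 413, 480 and 453 CPM against 226, 229 and 323 CPM (1.04 ± 0.25, edgeR adjusted p = 0.00297; 1.22 without hPSC chromatin replicate 3). The libraries did not overlap in either fraction. SMG6 was higher in the nucleus of endoderm (0.86 ± 0.16, edgeR adjusted p = 4.81e-04) and mesoderm (0.59 ± 0.16, edgeR adjusted p = 0.00651). Its libraries there read 72.5 to 80 CPM and 92.4 to 96.4 CPM, apart from 53.2 to 58.9 CPM in hPSC. On chromatin SMG6 changed by 0.54 in endoderm and 0.56 in mesoderm, both called. The endoderm libraries, at 65.2, 86.7 and 83.1 CPM, overlapped those of hPSC, at 59.1, 61.3 and 72.2 CPM, and that call was lost with library totals (0.29, adjusted p = 0.124) and in the TPM fit (0.22, adjusted p = 0.377). The mesoderm call was lost without mesoderm chromatin replicate 2 (0.43, adjusted p = 0.0502), and the change was 0.54 without replicate 3.

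The called changes of UPF1 and UPF2 were higher in ectoderm and mesoderm and lower in endoderm, and the endoderm directions turned in the authors' TPM. UPF1 was higher in the nucleus of ectoderm and mesoderm, by 0.60 in both (edgeR adjusted p = 0.00918 and 0.0108), with 257 to 270 CPM and 303 to 315 CPM against 180 to 187 CPM. In the TPM fit the ectoderm change was 0.22 and not called. In cytoplasm the UPF1 changes of 0.28 in ectoderm and -0.31 in endoderm were called. The ectoderm call was lost without hPSC replicate 1 or 2 or ectoderm replicate 2 (0.20 to 0.26, adjusted p = 0.0809 to 0.126). The endoderm call was lost without hPSC replicate 3 or endoderm replicate 1 or 2 (-0.19 to -0.28, adjusted p = 0.0758 to 0.136) and with library totals (-0.09, adjusted p = 0.513). In the TPM fit the endoderm change of UPF1 was 1.75 in cytoplasm and 1.09 in nucleoplasm, opposite in sign to the count fit, with its short endoderm models. UPF2 fell in endoderm cytoplasm by 0.56 (log2; edgeR adjusted p = 0.00247), from 32.1, 43.7 and 50.5 CPM to 32.6, 33.8 and 33.8 CPM, which overlap. With library totals that change was -0.34 and not called (adjusted p = 0.0731), and in the TPM fit it had the opposite sign and was called (0.81, adjusted p = 0.00196). In endoderm nucleoplasm it fell by 0.64, with 25.5 to 30.3 CPM against 60.3 to 61.5 CPM in hPSC, and was 0.17 and not called in the TPM fit. It rose in mesoderm nucleus by 1.10 ± 0.40 (edgeR adjusted p = 0.0304), with 39.3 to 41 CPM against 16.5 to 17.4 CPM in hPSC. UPF3B rose there by 1.09 (edgeR adjusted p = 0.0447). Each of the 6 libraries of this last comparison, left out in turn, ended both calls (UPF2 1.07 to 1.14, adjusted p = 0.0609 to 0.0854; UPF3B 1.00 to 1.19, adjusted p = 0.0774 to 0.129), as did library totals (1.26 and 1.24, adjusted p = 0.0604 and 0.08).

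The remaining calls against hPSC were smaller. In ectoderm cytoplasm UPF3B rose by 0.53 and UPF2 by 0.48 (edgeR adjusted p = 5.33e-04 and 0.00429). UPF3B libraries read 43.1 to 52.9 CPM against 29.7 to 35.7 CPM and UPF2 libraries 54.5 to 68.3 CPM against 32.1 to 50.5 CPM, both without overlap. SMG8 rose there by 0.38 (edgeR adjusted p = 0.0198) and fell in ectoderm nucleoplasm by 0.34 and on ectoderm chromatin by 0.50 (edgeR adjusted p = 0.00541 and 0.0290). The cytoplasm call of SMG8 was lost without hPSC replicate 1 or ectoderm replicate 2 (0.27 and 0.32, adjusted p = 0.0695 and 0.0739). Its chromatin call was lost without hPSC replicate 1 or 2 or ectoderm replicate 1 or 2 (-0.41 to -0.52, adjusted p = 0.0538 to 0.105). SMG5 fell in ectoderm cytoplasm by 0.27 (edgeR adjusted p = 0.0366), a call that ended without hPSC replicate 2 or 3 or ectoderm replicate 1 or 3 (-0.20 to -0.23, adjusted p = 0.113 to 0.14). In nucleoplasm UPF3B rose in ectoderm by 0.65, SMG6 rose in endoderm by 0.52 and UPF1 fell in endoderm by 0.38 (log2; edgeR adjusted p = 2.79e-05, 2.74e-06 and 1.18e-04). The SMG6 libraries overlapped, 59.1, 58.8 and 53.4 CPM against 53.1, 56 and 57.9 CPM in hPSC, and with library totals the change was 0.04 and not called (adjusted p = 0.697). The TPM fit gave no call for it either (0.23, adjusted p = 0.0844). In ectoderm nucleus SMG9 rose by 0.41 (edgeR adjusted p = 0.0397), a call lost without hPSC replicate 2 or 3 or ectoderm replicate 2 or 3 (0.33 to 0.45, adjusted p = 0.0588 to 0.147). Library totals ended this SMG9 call (0.34, adjusted p = 0.114) and that of SMG5 in ectoderm cytoplasm (-0.22, adjusted p = 0.102). In the TPM fit the ectoderm changes of SMG8 in nucleoplasm and on chromatin (-0.10 and -0.25) and of UPF3A on chromatin (-0.37) were not called. Changes that were not called ran from -0.86 for UPF2 in endoderm nucleus to 0.42 for UPF2 on mesoderm chromatin. In mesoderm cytoplasm 4 further factors, UPF1, UPF2, SMG5 and SMG8, became calls without hPSC replicate 1 (-0.26 to -0.37, adjusted p = 0.00687 to 0.0334), and SMG5 and SMG8 without mesoderm replicate 1 (-0.33 and -0.39, adjusted p = 0.0387 and 0.0447).

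A test of the difference between cell types in the cytoplasm-to-nucleus change called 2 of 9 in ectoderm against hPSC, both higher, where 52.3% of all genes were called. Endoderm gave 4 calls, all lower, against 38.5%, and mesoderm 2, both lower, against 25.3%. With library totals none of those 4 endoderm calls was kept, and 2 others were called, both higher, SMG1 (1.23, adjusted p = 0.038) and SMG8 (0.86, adjusted p = 0.00177). The median difference of the 9 was 0.36, 0.23 and -0.65, beside 0.05, -0.06 and 0.18 over all genes. The 3 differences share the hPSC libraries.

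Among the hPSC transcript models of these genes, UPF3A had the most, 9 of the 26. Long and short UPF3A models differed between fractions. Most are not in the reference annotation, so they are named by the length their counts and TPM imply. Over listed transcripts that implied length was 0.996 to 1 times the reference length in the median, and 0.601 to 1.52 times over the central 90% of transcripts. In hPSC the 12040-base model read 23.3, 22.8 and 19.4 CPM in nucleus and 7.2, 7.42 and 8.69 CPM in cytoplasm. The groups were apart, and it fell by 1.51 ± 0.17 on the log2 scale (edgeR adjusted p = 7.81e-05). It took 25% to 26.1% of the UPF3A counts of a nucleus library and 8.57% to 8.98% of a cytoplasm library. A 4230-base model fell alongside it (-1.45, edgeR adjusted p = 3.99e-04). A 1990-base model rose (1.36, edgeR adjusted p = 0.0446), a call lost without nucleus replicate 1 or 2 or cytoplasm replicate 1 or 3 (0.88 to 1.49, adjusted p = 0.0575 to 0.177). On hPSC chromatin the 12040-base model stood at 33.4, 32.1 and 49 CPM against 18.5, 18.3 and 17.6 CPM in nucleoplasm (0.79 ± 0.17, edgeR adjusted p = 0.0184), a call lost without any 1 of the nucleoplasm libraries (0.72 to 0.82, adjusted p = 0.0579 to 0.0917).

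**Figure D5:**
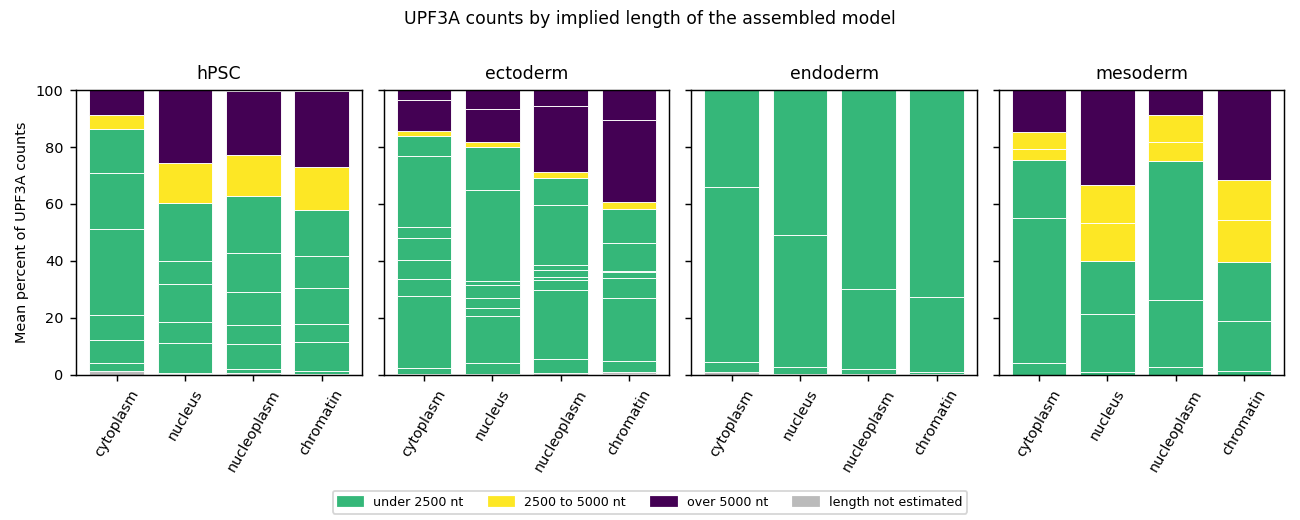
Mean percent of UPF3A counts held by models of under 2500, 2500 to 5000 and over 5000 implied bases, as stacked bars for each fraction of the 4 cell types. Models over 5000 bases take a smaller share in hPSC and mesoderm cytoplasm than in the nucleus of the same cells, and endoderm has none.

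In mesoderm a 6500-base UPF3A model read 21.5, 26.9 and 23.4 CPM in nucleus and 9.64, 9.68 and 7.55 CPM in cytoplasm (log2 change -1.08 ± 0.26, edgeR adjusted p = 0.0163), or 31.5% to 36.5% and 13.3% to 15.4% of UPF3A counts. The call was lost without cytoplasm replicate 1 or 3 (-1.09 and -1.01, adjusted p = 0.05 and 0.0586). A 3220-base model fell too (-1.65, edgeR adjusted p = 0.0109), and a 2100-base model rose (1.45, edgeR adjusted p = 0.0309), a call lost on leaving out nucleus replicate 2 or 3 or any cytoplasm library (1.21 to 1.59, adjusted p = 0.0502 to 0.102). The 6630-base model of ectoderm held 20.9% to 33.5% of UPF3A counts on chromatin and 9.89% to 12.4% in cytoplasm, but its share in nucleus was no larger, 10.3% to 13.4%. In CPM it went the other way from the long models of hPSC and mesoderm, with 3.36, 1.5 and 3.62 CPM in nucleus and 6.1, 6.33 and 6.6 CPM in cytoplasm (0.87 ± 0.25, edgeR adjusted p = 0.0463). That call was lost without nucleus replicate 1 or 2 or any cytoplasm library (0.64 to 0.95, adjusted p = 0.0724 to 0.116) and without the filter (adjusted p = 0.0628). Endoderm had no long model; there a 2140-base model held 62.6% to 87.6% of UPF3A counts on chromatin and 31.6% to 37.3% in cytoplasm. A 2030-base model rose in cytoplasm (1.23, edgeR adjusted p = 0.0379), a call lost without nucleus replicate 1 or 3 or any cytoplasm library (0.87 to 1.35, adjusted p = 0.0646 to 0.0909). So the gene sums of UPF3A, nearly level between hPSC nucleus and cytoplasm, held models that moved in opposite directions.

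Of the transcripts of these genes that were tested, 6 of 23 were called between cytoplasm and nucleus in hPSC (39.7% of all transcripts) and 9 of 28 in ectoderm (13.7%). Endoderm had 9 of 17 (42.1%) and mesoderm 11 of 26 (32.0%). Between chromatin and nucleoplasm 3 of 23 were called in hPSC (9.75%), 4 of 28 in ectoderm (13.9%) and 5 of 17 in endoderm (29.9%). The listed UPF3B-202, whose junction is shown above, rose in cytoplasm by 2.57 in ectoderm, by 2.73 in endoderm and by 1.36 in mesoderm (log2; edgeR adjusted p = 0.00162, 0.00190 and 0.00153). In ectoderm it held 81.4% to 87% of UPF3B counts in cytoplasm and 23.5% to 46.1% on chromatin, where it read 15.3, 12.9 and 7.9 CPM against 25.2, 28.9 and 26.4 CPM in nucleoplasm (-1.53 ± 0.36, edgeR adjusted p = 0.0203). That call was lost without nucleoplasm replicate 2 or 3 or chromatin replicate 2 or 3 (-1.32 to -1.64, adjusted p = 0.0524 to 0.0667). The endoderm model listed as UPF3B-202 implied 3190 bases against 2335 in the reference, so its label is uncertain. UPF1-201, the form without the 33-base extension, fell in cytoplasm in ectoderm (-0.88, edgeR adjusted p = 0.00344) and mesoderm (-0.82, edgeR adjusted p = 0.00645).

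Other genes of the pathway, in lists chosen with earlier results of these data known, are given as counts. Between cytoplasm and nucleus, the share of all genes called in either direction was 65.5% for hPSC, 54.2% for ectoderm, 69.9% for endoderm and 63.2% for mesoderm. Of 9 exon junction complex genes, which mark spliced mRNA for the pathway, 7 were higher in cytoplasm than in nucleus in both hPSC and mesoderm, 8 in endoderm and 5 in ectoderm. Apart from 1 in mesoderm none was lower, and their median log2 changes in hPSC, ectoderm, endoderm and mesoderm were 1.34, 0.25, 1.17 and 1.20. With library totals the higher ones numbered 7, 8, 9 and 6 in that order. CWC22, which loads EIF4A3 onto pre-mRNA, changed by 2.42, 2.94, 3.43 and 1.13 in these cell types and MAGOH, a core subunit, by 2.16, 1.68, 2.72 and 1.94. Between chromatin and nucleoplasm, 5, 6 and 6 of the 9 were lower on chromatin in hPSC, ectoderm and endoderm and 0, 1 and 1 higher, where 30.6%, 44.4% and 53.7% of all genes were called. With library totals 3 were lower in each and 2, 1 and 1 higher, and the endoderm median went from -0.54 to 0.03. Against hPSC in cytoplasm, 6 of the 9 were lower in each derived cell type and 3, 0 and 1 higher, or 5 and 3, 1 and 1 with library totals, where 76.0%, 59.6% and 68.0% of all genes were called. MAGOHB, a paralogue of MAGOH, changed by -2.55, -0.92 and -1.14 and EIF4A3, the helicase that clamps the complex on RNA, by -1.31, -0.59 and -1.20.

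NBAS, another factor of the pathway, was lower in cytoplasm than in nucleus in all 4 cell types, with log2 changes of -2.70, -1.40, -2.48 and -2.26 in the order hPSC, ectoderm, endoderm and mesoderm. The counts of the next lists also stand beside the 54.2% to 69.9% of all genes called between cytoplasm and nucleus. Among 5 chaperone genes that assemble kinases of the SMG1 type, 2 were higher and 1 lower in cytoplasm in hPSC, 0 and 3 in ectoderm, and 1 and 1 in both endoderm and mesoderm. With library totals the endoderm counts were 4 and 1 and the ectoderm counts 1 and 1. TELO2 changed by -0.67, -0.55, -1.73 and -1.39. For decapping and 5′ decay, with 6 genes tested (5 in endoderm), 3, 4, 4 and 1 were higher and 2, 1, 1 and 2 lower. PNRC2, which links UPF1 to decapping, changed by 1.95, 1.70, 2.68 and 2.10 and the decapping scaffold EDC4 by -0.73, -0.52, -1.32 and -1.13. The ectoderm calls of TELO2 and EDC4 were lost with library totals (-0.22 and -0.19). Of 4 termination and poly(A)-binding genes, 2, 0, 3 and 2 were higher and 0, 0, 0 and 1 lower, and with library totals 3, 2, 4 and 2 were higher. Known sensitive transcripts of the pathway were split, 6 higher and 1 lower of 12 in hPSC and 7 and 4 of 12 in mesoderm. Of 11 tested, 4 were higher and 3 lower in ectoderm and 3 and 2 in endoderm, or 6 and 1, and 8 and 2, with library totals. TBL2, 1 of them, changed by -2.43, -1.70, -2.84 and -1.26, and ATF4, a stress transcription factor, by 1.16, 0.46, -0.01 and 1.07, of which the endoderm value was not called but was 0.66 and called with library totals.

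Over the 15 groups with 3 libraries, the factors followed different genes. As a description, with groups that share cell type tables and fractions, Pearson's r of mean log2(CPM + 1) among 9182 genes was highest with SKI (0.92) for UPF1, CIP2A (0.973) for UPF2, TNRC6A (0.931) for UPF3A and GCA (0.975) for UPF3B. It was highest with UBA6 (0.979) for SMG1, PICK1 (0.977) for SMG5, CARD10 (0.859) for SMG6, SLC2A1 (0.792) for SMG8 and IER2 (0.945) for SMG9. The next in each case were SCAF1 (0.885), PLK4 (0.963), ZNF667 (0.925), BORA (0.966), ZNF141 (0.975), E4F1 (0.968), ELL (0.85), SLC17A5 (0.786) and CASC3 (0.931). Between the factors themselves r ran from -0.423 for UPF3B and SMG8 to 0.869 for UPF2 and UPF3B, with 0.728 for UPF2 and UPF3A and 0.665 for SMG5 and SMG6.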

How the data were processed

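RNA of 4 fractions of 4 cell types was sequenced in 46 libraries (NEBNext Ultra RNA kit, NovaSeq, per the labels' protocols). The submitters' processing notes name the hg38 build, STAR and RSEM, without versions or roles. The deposited tables give whole-number counts and TPM for each transcript of an assembly made for each cell type, and, for ectoderm, also of a combined assembly; how the authors assembled transcripts or counted them is not given in the sources used here, nor is any use of strand, so antisense or overlapping genes cannot be told apart. The deposited files hold 2 columns of per-sample values that match no sample here, and these were not used. Rows with no Ensembl gene held 0.277% to 9.6% of a library's counts. They stayed out of the gene-level tests but were part of the transcript tests.

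Groups were taken from the labels. Transcript counts were summed by gene. Tests were edgeR 4.0.16 quasi-likelihood F-tests in R 4.3.3 with TMM scaling, filterByExpr (minimum count 10) and Benjamini-Hochberg adjustment over all features, called at an adjusted p below 0.05. Standard errors are the size of the log2 change over the square root of F. Fits within a cell type used all its libraries; fits against hPSC used all libraries of a fraction over the 10707 genes in all 4 tables; differences of the cytoplasm-to-nucleus change were interaction terms. Alternatives were library totals without TMM, no filter, DESeq2 1.42.0, a replicate block, limma 3.58.1 on log2(TPM + 1), the combined assembly and leaving out each library. In 0 of 18 pairs of groups did all same-numbered libraries correlate above 0.1 in their deviations from the group mean. The values ran from -0.459 to 0.449. They were not set against differently numbered libraries, so whether replicate numbers pair libraries was not settled. The fit, run on simulated counts for cytoplasm against nucleus in hPSC, recovered 72.0% of 2-fold and 96.8% of 4-fold changes among 13959 genes, and 4.08% and 34.7% among 28292 transcripts. Few features were changed there, 98 transcripts by 2-fold and 98 by 4-fold, whereas 39.7% of transcripts were called in the data. The adjustment for many tests therefore differs, and the simulated recovery does not give the share missed in the data.

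The 9 members, the lists and the tests were chosen with earlier results of these data known. All 9 are named in each comparison; transcripts are named if they hold at least 20% of a gene's counts in a group, or are called with no overlap and at least 2 CPM. Of each list, at most 2 called genes per direction are named, those that changed most, and of most alike genes the 2 with the highest r among those with a mean of at least 10 CPM. MAGOHB, EIF4A3, TELO2, EDC4 and ATF4 are followed across cell types once named in 1 of them. A model's implied length is its count divided by its TPM, scaled to listed transcripts of more than 2000 bases with at least 200 counts. The counts of a further list of decay factors are not reported here. Sequences come from GENCODE v29.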

Additional observations from a re-analysis of the deposited data

Results flagged for a closer look

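For 8 results the change between cytoplasm and nucleus differed between a derived cell type and hPSC, by the interaction term of edgeR's quasi-likelihood test with Benjamini-Hochberg adjustment over all genes. Each value is the log2 change in the derived cells minus that in hPSC, with its SE, from 3 libraries in each group.

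In ectoderm the difference was 1.36 ± 0.35 for SMG1 (adjusted p = 0.00266) and 1.16 ± 0.34 for UPF3A (adjusted p = 0.00704). Both were called without each library left out in turn. The hPSC nucleus held 6.95, 9.17 and 7.29 CPM of SMG1 and the ectoderm nucleus 83.1, 30.7 and 79.7 CPM, and the 2 tables hold different SMG1 models.

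In endoderm the difference was -1.01 ± 0.18 for SMG5 (adjusted p = 3.07e-04), -0.72 ± 0.22 for UPF1 (adjusted p = 0.0132), -0.68 ± 0.20 for SMG9 (adjusted p = 0.00960) and -0.61 ± 0.21 for SMG6 (adjusted p = 0.0259). With library totals in place of TMM these were -0.39, -0.08, -0.09 and 0.03, none called. UPF1 also lost its call without endoderm nucleus replicate 1 (-0.41, adjusted p = 0.056). SMG6 lost its call on leaving out hPSC nucleus replicate 3, hPSC cytoplasm replicate 2 or 3, endoderm nucleus replicate 1 or endoderm cytoplasm replicate 2 (-0.30 to -0.58, adjusted p = 0.0534 to 0.141).

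In mesoderm the difference was -0.65 ± 0.22 for UPF1 (adjusted p = 0.0318) and -0.65 ± 0.20 for SMG9 (adjusted p = 0.0190). UPF1 lost its call when any of 8 libraries was left out (hPSC nucleus replicate 1 or 3, hPSC cytoplasm replicate 2 or 3, mesoderm nucleus replicate 1 or 3, mesoderm cytoplasm replicate 1 or 2; -0.54 to -0.67, adjusted p = 0.0503 to 0.0954), and SMG9 without hPSC nucleus replicate 2 (-0.57, adjusted p = 0.0516) or mesoderm cytoplasm replicate 2 (-0.59, adjusted p = 0.0537). The mitochondrial share, lower in cytoplasm than in nucleus in hPSC and higher in mesoderm, moves with this contrast; its part was not tested.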

How the results depend on the processing

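Of the gene-level changes called by edgeR, DESeq2 kept 93 and lost 1, dropping the filter kept 93 and lost 1, and the combined ectoderm assembly kept 11 and lost 0. Library totals kept 72, lost 18 and reversed 4; the TPM fit kept 64, lost 22 and reversed 8; and leaving out a library kept 550 values, lost 62 and reversed 0. Whether the replicate numbers pair the libraries was not settled. The fit with the replicate number as a block kept 89 calls and lost 5. With that block, members called numbered 3 in mesoderm against hPSC in nucleus, and member transcripts called numbered 5 in ectoderm and 4 in mesoderm between cytoplasm and nucleus. DESeq2 called 5 members on hPSC chromatin against nucleoplasm, 4 for the mesoderm cytoplasm-to-nucleus difference, and 8 transcripts between chromatin and nucleoplasm in ectoderm.

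With library totals, 5 members were called on hPSC chromatin against nucleoplasm, and 2 (both higher) and 4 for the endoderm and mesoderm differences of the cytoplasm-to-nucleus change. Signs turned in endoderm between cytoplasm and nucleus for SMG6 (0.09), SMG9 (0.33) and SMG8 (0.04), between chromatin and nucleoplasm for SMG6 (0.46) and its listed transcript (0.50), against hPSC in nucleoplasm for SMG8 (-0.36) and SMG5 (-0.40), and for SMG6 in the endoderm difference (0.03). That scaling moves every gene: the median of all genes shifted in endoderm against hPSC by 0.22 in cytoplasm, -0.37 in nucleus, -0.48 in nucleoplasm and -0.25 on chromatin. It shifted by -0.15 and 0.16 in mesoderm on chromatin and in nucleus, and by 0.13, 0.60 and -0.25 for the ectoderm, endoderm and mesoderm differences. The share of calls that were higher went, in endoderm against hPSC, from 46.0% to 66.9%, 50.4% to 30.1%, 47.9% to 27.4% and 50.3% to 37.8% in cytoplasm, nucleus, nucleoplasm and chromatin. For the endoderm and mesoderm differences it went from 51.9% to 92.0% and 73.1% to 48.8%. For transcripts it went from 62.4% to 90.7%, 32.5% to 68.9% and 39.4% to 75.9% for chromatin against nucleoplasm in hPSC, ectoderm and endoderm. It went from 51.5% to 75.0%, 45.8% to 60.6% and 47.6% to 32.0% between cytoplasm and nucleus in ectoderm, endoderm and mesoderm.

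In the TPM fit, members called numbered 5 in hPSC and 6 in ectoderm between chromatin and nucleoplasm, 4 in ectoderm and 8 in mesoderm between cytoplasm and nucleus, 1 in ectoderm and 8 in mesoderm against hPSC in nucleus, 3 in ectoderm against hPSC on chromatin, and 4 and 8 for the ectoderm and mesoderm differences. Signs turned between chromatin and nucleoplasm for SMG6 in hPSC (0.51), UPF1, SMG6 and SMG8 in ectoderm (0.57, 0.65 and 0.14) and SMG6 in endoderm (0.50). They also turned between cytoplasm and nucleus in mesoderm for UPF3B (-0.14) and UPF2 (-0.96). Against hPSC they turned in cytoplasm for SMG5 in ectoderm (0.04) and UPF1, UPF3B and UPF2 in endoderm (1.75, 0.54 and 0.81), and in nucleus for SMG8 in mesoderm (0.72). Further turns were on chromatin for UPF2 in endoderm (0.76), in nucleoplasm for UPF1 and UPF2 in endoderm (1.09 and 0.17), and for the differences of SMG6 in endoderm (0.07) and SMG8 in mesoderm (-0.73). The cause of these changes was not tested.

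Leaving out each library in turn, members called ranged, in ectoderm against hPSC, from 3 to 5 on chromatin (lowest without ectoderm chromatin replicate 1), and in endoderm against hPSC in nucleus from 4 to 7 (highest without endoderm nucleus replicate 2). In mesoderm against hPSC they ranged from 3 to 7 in cytoplasm and from 3 to 3 in nucleus, and between cytoplasm and nucleus in hPSC from 3 to 6. They ranged between chromatin and nucleoplasm in ectoderm from 2 to 4, on mesoderm chromatin against hPSC from 2 to 4, and for the differences from 2 to 3 in ectoderm, 2 to 6 in endoderm (2 without endoderm nucleus replicate 1) and 0 to 3 in mesoderm. Transcripts called ranged from 5 to 6 in hPSC, 4 to 8 in ectoderm, 5 to 9 in endoderm and 4 to 8 in mesoderm between cytoplasm and nucleus. They ranged from 0 to 3, 1 to 2 and 3 to 5 between chromatin and nucleoplasm in hPSC, ectoderm and endoderm. Low values limit the precision: SMG1 in hPSC nucleus and cytoplasm and UPF3B in hPSC and endoderm nucleus were under 10 CPM in every library. In the simulation, where few features were changed, 4.08% of 2-fold changes of single transcripts were recovered. The share missed in the data was not tested.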
